A study of Homo sapiens with 4 samples.

Results

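The ephrin, semaphorin, plexin and neuropilin genes are the guidance genes by which cells read their neighbours. They were taken by symbol from the protein-coding rows of the gene tables, as Eph receptors, ephrins, semaphorins of classes 3 to 7, plexins and neuropilins. This gave 53 of 39261 genes. MDA-MB-231, a mesenchymal triple-negative breast cancer line, carried a control vector (named sh-NC in the design text) or a TMEM126A knockdown. MCF10-Ca1a (Ca1a), a malignant line descended from MCF10A breast epithelium, carried a control vector (pCDH) or TMEM126A overexpression. All 4 cultures were treated with lentivirus, were at passages 10 to 15 and gave 1 library each. Ca1a was grown in DMEM/F12 with horse serum, insulin, EGF, cholera toxin and hydrocortisone, and MDA-MB-231 in L15 with FBS, so line and medium cannot be told apart. TMEM126A is a mitochondrial protein with a part in the assembly of complex I.

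Eph receptors are tyrosine kinases that meet their ephrin ligands on the surface of a neighbouring cell. Ephrin-A ligands are held by a lipid anchor and bind mainly EphA receptors, while ephrin-B ligands cross the membrane and bind mainly EphB receptors. Semaphorins signal through plexins, which act on small GTPases and the cytoskeleton, and most secreted class 3 semaphorins need a neuropilin as co-receptor. Both systems are known from axon guidance and also act at epithelial boundaries, in blood vessels and in tumour cell migration.

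Libraries held 20673373 to 21405193 reads, of which the guidance genes took 0.286% to 0.348%. Normalized counts, which are reads per gene over a library's size factor, put TMEM126A at 559 in the MDA-MB-231 control, 22.9 in the knockdown, 265 in the Ca1a control and 9381 in the overexpression library, as labelled. For Ca1a the deposited values are whole counts and the size factor is 1 in both libraries, so Ca1a ratios carry no scaling. FPKM is a level per transcript length and depth, used here to compare genes. The 5 epithelial markers spanned 5.56 to 650 FPKM in the Ca1a control and 0.0967 to 3.10 FPKM in the MDA-MB-231 control, while of 4 mesenchymal markers VIM and ZEB1 were higher in MDA-MB-231 and CDH2 and SPARC were under 2 FPKM in every library. Of 19 markers of endothelial, neuronal, glial, fibroblast and immune cells, 17 were under 2 FPKM in all 4 libraries, the others being TUBB3 and CD14. In bulk RNA, fewer cells of a type and less RNA per cell cannot be told apart. With 1 library per group no difference has a replicate check, and no test between conditions was possible. The intervals given are at 95% and cover counting error alone.

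The 2 control libraries were set side by side first. Of the 53 guidance genes, 22 reached 1 FPKM in both controls, 6 in the MDA-MB-231 control alone and 4 in the Ca1a control alone, and 21 stayed under it in both. EPHA7 and EPHB6 were listed at 0 in every library. A gene was called between controls when it was at least 4-fold apart on log2(FPKM + 0.1) and reached 1 FPKM in the higher one. Of 32 guidance genes that reached it, 6 (18.8%) were called higher in MDA-MB-231, against 13.1% of all genes, and 5 (15.6%) in Ca1a, against 6.66%. The 6 were EPHA4, EFNB3, SEMA4D, SEMA6B, PLXND1 and NRP1, and the 5 were EPHA1, EPHB3, EFNA3, EFNB1 and PLXNB1.

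**Figure D1:**
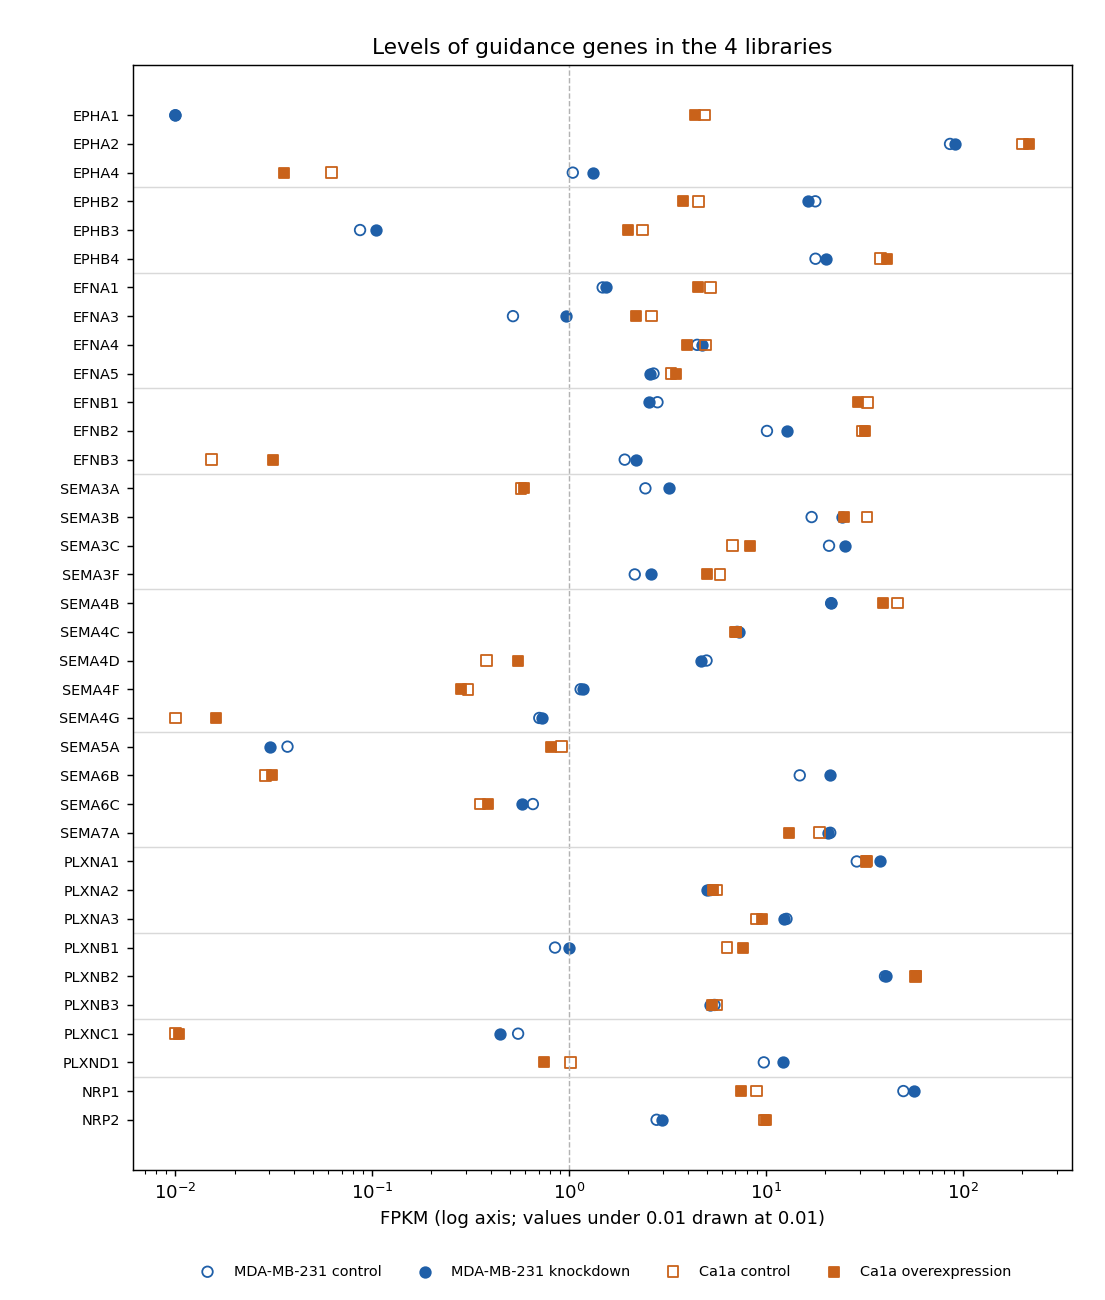
FPKM (log axis) of the guidance genes that reached 0.5 FPKM in at least 1 library, with circles for MDA-MB-231, squares for Ca1a, open symbols for controls and filled symbols for treated libraries. Both libraries of a line lie close together for most genes, and the lines lie far apart for EPHA1, EFNB3 and SEMA6B, while SEMA4C, PLXNA2 and PLXNB3 stand near 1 level in all 4.

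Among EphA receptors, EPHA2 supplied nearly all of the measured transcript. EPHA2, a receptor of ephrin-A1 found in many carcinomas, stood at 86.2 FPKM in the MDA-MB-231 control, 91.7 in the knockdown, 201 in the Ca1a control and 217 in the overexpression library. It was the most abundant guidance gene in every library, with 98.5% of the summed EphA FPKM in the MDA-MB-231 control and 97.6% in the Ca1a control. The next EphA gene differed between the lines. EPHA4, which binds ephrins of both classes, stood at 1.05 and 1.32 FPKM in the MDA-MB-231 control and knockdown and at 0.0623 and 0.0358 in the Ca1a control and overexpression libraries. EPHA1 had the opposite pattern, at 4.89 and 4.38 FPKM in the Ca1a pair, while in MDA-MB-231 it had 1 read in the control and 0 in the knockdown. EPHA5 followed at 0.191 and 0.210 FPKM in the MDA-MB-231 pair and was listed at 0 in Ca1a.

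EphB receptors were shared differently in the 2 lines. In the MDA-MB-231 control EPHB4, a receptor known from vein formation, stood at 17.9 FPKM (17.0 to 18.8) and EPHB2 at 17.8 FPKM (17.1 to 18.5), with overlapping intervals. Their normalized counts were 1651 and 2589, so the like FPKM also rests on the transcript lengths used. In the Ca1a control EPHB4 stood at 38.3 FPKM (37.1 to 39.5) and EPHB2 at 4.54 FPKM (4.21 to 4.89). EPHB4 thus made up 49.9% of the summed EphB FPKM in the MDA-MB-231 control and 84.7% in the Ca1a control. EPHB3 stood at 0.0868 FPKM in the MDA-MB-231 control and 2.36 in the Ca1a control.

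Ephrin ligands were more abundant in Ca1a, mainly through the B class, which summed to 63.8 FPKM in its control and 14.9 in the MDA-MB-231 control. EFNB1 stood at 32.8 FPKM in the Ca1a control and 2.81 in the MDA-MB-231 control, an 11.6-fold difference, and EFNB2, the main ligand of EPHB4, at 31.0 and 10.1. Within the Ca1a control, EFNB1 at 32.8 FPKM (31.4 to 34.1) and EFNB2 at 31.0 FPKM (30.1 to 32.0) had overlapping intervals. EFNB3, known from the midline of the nervous system, ran the other way, at 1.92 FPKM in the MDA-MB-231 control against 1 read in the Ca1a control. The A class summed to 16.1 FPKM in the Ca1a control and 9.27 in the MDA-MB-231 control. EFNA4 led it in the MDA-MB-231 control at 4.48 FPKM (3.74 to 5.31), followed by EFNA5 at 2.69 FPKM (2.45 to 2.94). EFNA1 and EFNA4 led it in the Ca1a control, at 5.22 FPKM (4.76 to 5.72) and 4.94 FPKM (4.20 to 5.78), with intervals that overlap.

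Semaphorins summed to 116 FPKM in the MDA-MB-231 control and 120.5 in the Ca1a control, but different ligands led. In the MDA-MB-231 control SEMA4B stood at 21.5 FPKM (20.5 to 22.5), SEMA7A at 21.2 FPKM (20.3 to 22.2) and SEMA3C at 20.9 FPKM (20.2 to 21.7), 3 neighbours with overlapping intervals, followed by SEMA3B at 17.1 FPKM (16.2 to 18.0) and SEMA6B at 14.9 FPKM (14.0 to 15.8). In the Ca1a control the order was SEMA4B at 46.6 FPKM (45.2 to 48.1), SEMA3B at 32.7 FPKM (31.4 to 33.9) and SEMA7A at 18.7 FPKM (17.8 to 19.6), and then SEMA4C at 6.99 FPKM (6.496 to 7.51) and SEMA3C at 6.76 FPKM (6.35 to 7.19), whose intervals overlap. SEMA6B, a transmembrane ligand of A-type plexins, had only 2 reads in each Ca1a library. SEMA4D, the ligand of plexin-B1, stood at 4.996 FPKM in the MDA-MB-231 control and 0.381 in the Ca1a control. The plexin-B1 gene PLXNB1 stood at 0.849 and 6.34 FPKM, so the ligand was called higher in the line where the receptor was called lower. SEMA4C, a ligand of plexin-B2, was nearly level, at 7.15 and 6.99 FPKM.

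Of the plexins, PLXNB2 led in both controls, at 40.3 FPKM in MDA-MB-231 and 57.5 in Ca1a, followed by PLXNA1, a partner of neuropilins for class 3 semaphorins, at 28.95 and 32.2. PLXNA3 stood at 12.7 and 8.95 FPKM, and PLXNA2 (5.21 and 5.62) and PLXNB3 (5.48 and 5.62) were close to level. PLXND1, the receptor of SEMA3E, stood at 9.76 FPKM in the MDA-MB-231 control and 1.02 in the Ca1a control. PLXNC1, the receptor of SEMA7A, stood at 0.551 FPKM in the MDA-MB-231 control and had 2 reads in the Ca1a control, where SEMA7A had 1650. The neuropilins differed in balance: NRP1, which also binds VEGFA, stood at 49.9 FPKM and NRP2 at 2.79 in the MDA-MB-231 control, against 8.98 and 9.80 in the Ca1a control. NRP1 made up 94.7% of the neuropilin FPKM in the former, and NRP2 52.2% in the latter.

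**Figure D2:**
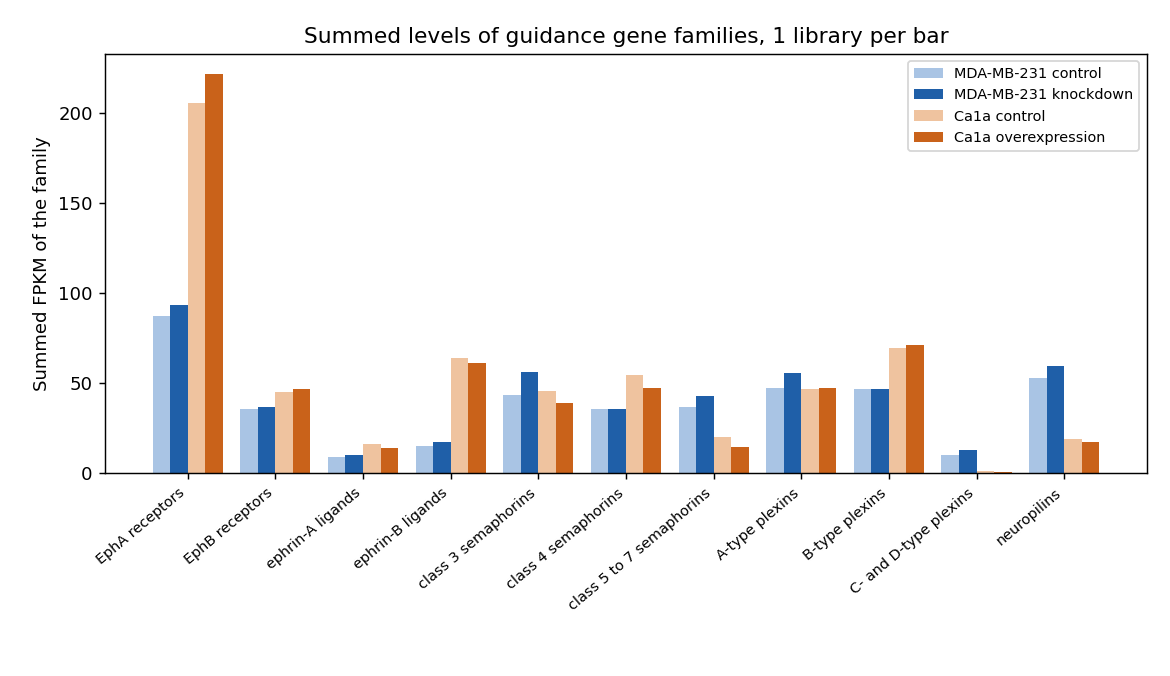
Summed FPKM of each family (linear axis from 0), with 1 bar per library. EphA receptors and ephrin-B ligands are higher in both Ca1a libraries, with control sums of 206 and 63.8 FPKM, and neuropilins and C- and D-type plexins in both MDA-MB-231 libraries, with control sums of 52.7 and 10.3 FPKM.

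Lowering TMEM126A in MDA-MB-231 was the first treatment compared. EFNA3, PLXNA4, SEMA6B, SEMA3B, PLXNA1 and SEMA3A were called higher in the knockdown library, and no guidance gene was called lower. A call needed a ratio of normalized counts of at least 1.3 in a direction, a mean over the pair of at least 20 such counts, and an interval that leaves out 1. Of 39 guidance genes with that mean, 6 (15.4%) were called higher, against 3.24% of all 13292 genes with it, and 0 lower, against 1.69%. Intervals left out 1 on the higher side for 15 of the 39 (38.5%) and on the lower side for 0, against 16.8% and 11.3% of all genes. Among genes at or above the guidance genes' median abundance, those shares were 23.3% and 15.4%. The median log2 ratio, on log2(normalized counts + 1), was 0.13 for the guidance genes and 0.01 for all genes with that mean. The remaining 14 guidance genes were under the mean of 20. These shares describe a pair of cultures, and a difference between cultures unrelated to TMEM126A cannot be told apart from one due to it.

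Of the 7 class 3 semaphorins, SEMA3G reached the mean only through the knockdown library (19.1 and 24.8 normalized counts) and is not counted here. The other 6 had ratios of 1.20 to 1.42, beside 7160 of all 13292 genes with ratios above 1. SEMA3B, a secreted semaphorin described as a tumour suppressor, had 1377 and 1957 normalized counts in the control and knockdown libraries and was 1.42-fold higher (1.33 to 1.52). SEMA3A, which repels growing axons, had 695 and 913 and was 1.31-fold higher (1.19 to 1.45). SEMA3C, at 3094 and 3769, was 1.22-fold higher (1.16 to 1.28), and SEMA3F, at 299 and 361, was 1.21-fold higher (1.03 to 1.41). These 4 differed beyond counting error, the last pair below the 1.3-fold threshold. SEMA3D, with a ratio of 1.21 (0.874 to 1.68), and SEMA3E, with 1.20 (0.873 to 1.66), had few reads and intervals that hold 1, as did SEMA3G.

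Positions are from GENCODE release 29 on GRCh38. SEMA3C, SEMA3E, SEMA3A and SEMA3D lie in this order on the minus strand of chromosome 7, and their ratios were 1.20 to 1.31. SEMA3F (chr3:50155045-50189075) and SEMA3B (chr3:50267558-50277546) lie on the plus strand 78.5 kb apart. They were also the class 3 pair that was lower in Ca1a, as given below. The 250 bases before the most upstream RefSeq start (GRCh38.p14) are therefore printed for SEMA3F (plus strand, chr3:50154808-50155057) and SEMA3B (plus strand, chr3:50259976-50260225), and for PLXNA1 (plus strand, chr3:126982865-126983114), the most abundant gene called in the knockdown comparison. They read 5′ to 3′, and capitals mark the GC box GGGCGG on either strand, with overlapping matches joined.
SEMA3F: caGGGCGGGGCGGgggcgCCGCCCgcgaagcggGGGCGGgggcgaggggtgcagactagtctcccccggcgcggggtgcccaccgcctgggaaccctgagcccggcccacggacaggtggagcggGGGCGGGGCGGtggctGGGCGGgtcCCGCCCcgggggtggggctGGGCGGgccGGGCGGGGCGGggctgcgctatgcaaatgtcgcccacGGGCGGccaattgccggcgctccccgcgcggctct
SEMA3B: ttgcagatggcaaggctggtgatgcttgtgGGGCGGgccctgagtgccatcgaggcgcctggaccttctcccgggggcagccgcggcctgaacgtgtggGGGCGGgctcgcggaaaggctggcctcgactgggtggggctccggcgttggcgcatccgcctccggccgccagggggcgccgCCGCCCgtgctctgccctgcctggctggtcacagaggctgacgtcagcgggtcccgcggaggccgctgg
PLXNA1: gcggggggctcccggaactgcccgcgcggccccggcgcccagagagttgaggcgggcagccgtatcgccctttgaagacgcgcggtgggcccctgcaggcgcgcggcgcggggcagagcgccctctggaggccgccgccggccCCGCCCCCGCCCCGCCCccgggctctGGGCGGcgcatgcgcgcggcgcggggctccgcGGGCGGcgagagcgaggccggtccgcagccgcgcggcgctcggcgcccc
The windows hold 12, 3 and 5 GC boxes. Those of SEMA3B and PLXNA1 end upstream of the GENCODE starts given here. RefSeq's table has 5 windows for SEMA3B, and the one at the GENCODE start (chr3:50267402-50267651, not printed) holds 4 GC boxes. RefSeq's table matched 47 of the 53 guidance genes with 74 windows of this length. Of these, 54 (73%) hold a GC box, against 54.2% of the windows of protein-coding genes. Windows of 1 gene can overlap, so some bases are counted more than once. By gene, 43 of 47 (91.5%) have a GC box in at least 1 window, against 62.9% of protein-coding genes. The AP-1 motif TGANTCA, on either strand, was in 1 of the 74 (1.35%), against 5.36%, and the hypoxia core ACGTG, on either strand, in 14 (18.9%), against 20.2%. A match describes letters and not a bound site.

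The other semaphorins were mostly level between the MDA-MB-231 libraries. SEMA6B was the exception, with 1068 and 1591 normalized counts, 1.49-fold higher (1.38 to 1.61). The class 4 genes with the mean, SEMA4B (1793 and 1853), SEMA4C (735 and 768), SEMA4D (1153 and 1107), SEMA4F and SEMA4G, had ratios of 0.960 to 1.05 and intervals that hold 1. SEMA7A, a lipid-anchored ligand, had 1815 and 1782, a ratio of 0.982 (0.919 to 1.05).

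Among semaphorin receptors PLXNA1 (chr3:126988594-127037392) had 6170.0 and 8295 normalized counts in the control and knockdown libraries and was 1.34-fold higher (1.301 to 1.39). PLXNA4, a plexin known from sensory neurons, had 121 and 187 and was 1.55-fold higher (1.22 to 1.96), at a level of only 0.237 and 0.369 FPKM. PLXND1, at 1784 and 2318, had a ratio of 1.299 (1.22 to 1.38), just under the threshold. PLXNA2 (2013 and 1985), PLXNA3 (2330.3 and 2226), PLXNB2 (7332 and 7554) and PLXNB3 (949 and 924) had intervals that hold 1, and PLXNB1, at 283 and 334, was 1.18-fold higher (1.005 to 1.39). The lowest ratio of the 39 was that of PLXNC1, 0.801 (0.634 to 1.01), at 170.0 and 136 counts. NRP1, at 9955 and 11437, was 1.15-fold higher (1.12 to 1.18), whereas NRP2, at 687 and 738, had a ratio of 1.07 (0.967 to 1.19). Endothelial cells also carry NRP1 and PLXND1, and the sum of 4 endothelial markers was 0.503 FPKM in the control and 0.908 with knockdown. PECAM1 (91.6 and 172 normalized counts) was 1.88-fold higher with knockdown (1.45 to 2.45). CDH5 (2.01 and 10.9), TEK (10.1 and 5.96) and VWF (13.1 and 11.9) were under the mean needed for a call. The ratio intervals of TEK (0.177 to 1.80) and VWF (0.380 to 2.17) hold 1, so their counts show no direction. Of 4 neuronal markers, TUBB3 was higher with knockdown (932 and 1308 normalized counts) and RBFOX3 was listed at 0. SYP (41.3 and 32.8) and MAP2 (22.1 and 23.9) had ratio intervals that hold 1. The part of these markers in the ratios was not tested.

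Eph receptors and ephrins had 1 call in the knockdown comparison, of 5 and 7 genes with the mean. Of all genes 3.24% were called higher and 1.69% lower, and a set this small gives no contrast with those shares. EFNA3 (chr1:155078872-155087538), an ephrin-A ligand gene, had 22.1 and 46.7 normalized counts and was 2.11-fold higher (1.25 to 3.68), on the fewest reads of the called genes. Its neighbours EFNA4, 9.32 kb before it, and EFNA1, 39.9 kb after it, had ratios of 1.08 (0.845 to 1.38) and 1.08 (0.825 to 1.41). The annotated gene AL691442.1 shares exon bases with EFNA3 and EFNA4 on the same strand, so the counts of this pair are uncertain. EFNB2, at 1239 and 1600.1, was 1.29-fold higher (1.20 to 1.39), and EPHA4, at 207 and 267, was 1.29-fold higher (1.07 to 1.55), both just under the threshold. EPHB4, at 1651 and 1925, was 1.17-fold higher (1.09 to 1.25), and EPHA2, at 8128 and 8868, was 1.09-fold higher (1.06 to 1.12). EPHB2, at 2589 and 2468, had a ratio of 0.953 (0.902 to 1.01). The FPKM intervals of this EphB pair overlapped in the control. In the knockdown library they did not, at 20.2 FPKM (19.4 to 21.2) for EPHB4 and 16.5 FPKM (15.8 to 17.1) for EPHB2. EFNA5 (480.0 and 481), EFNB1 (190.2 and 179) and EFNB3 (127 and 146) had intervals that hold 1.

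**Figure D3:**
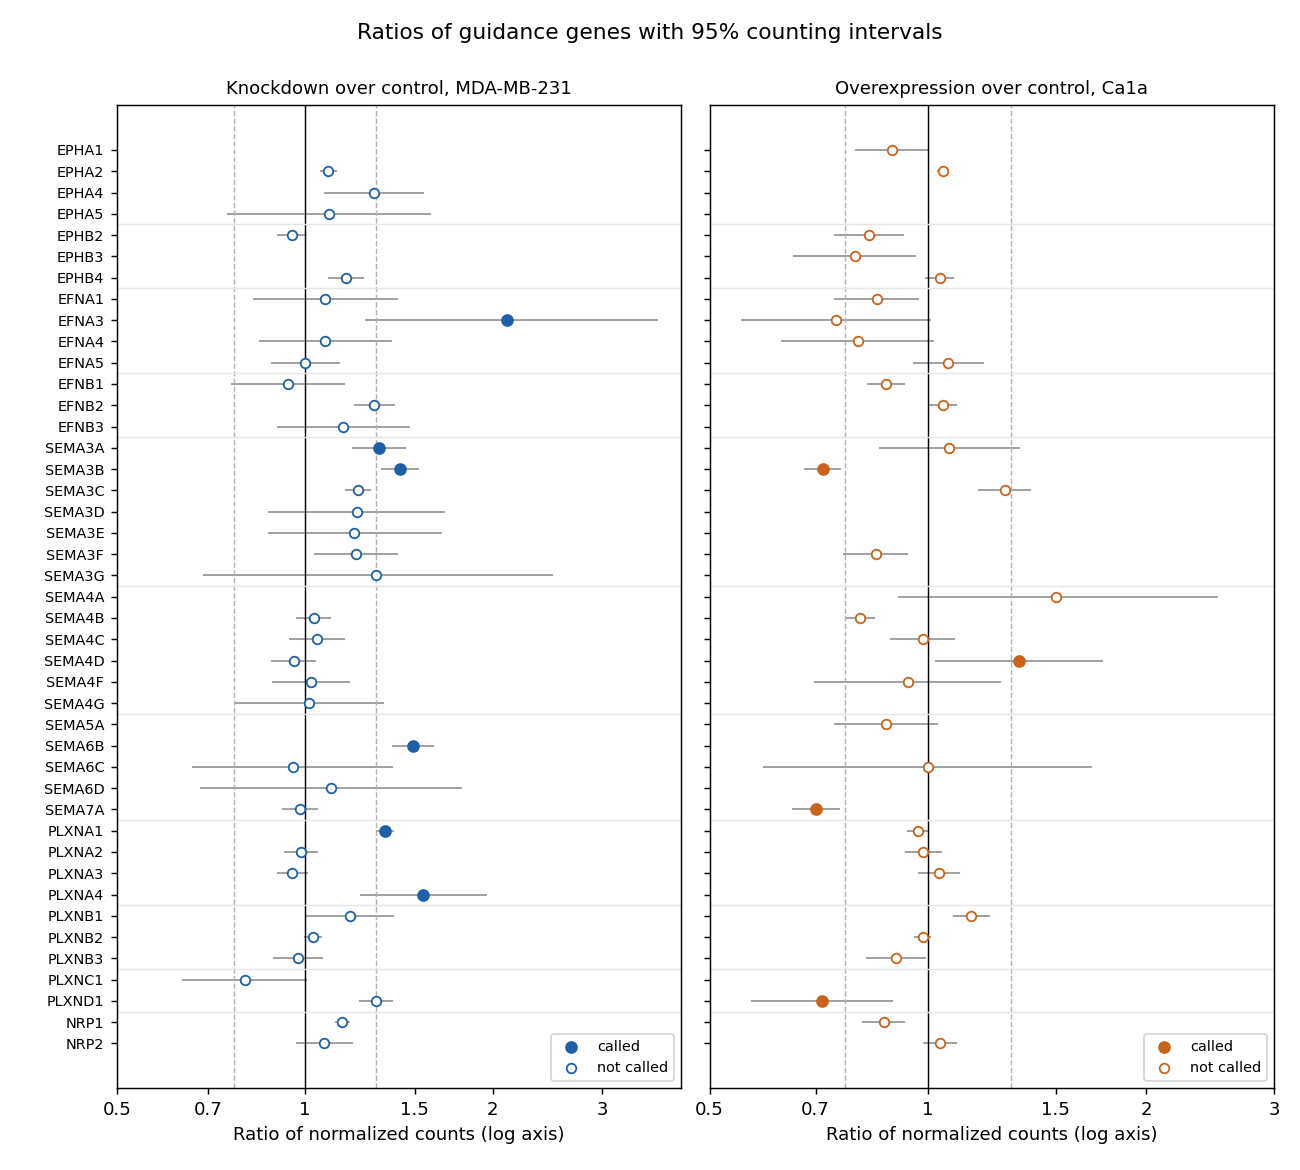
Ratios of normalized counts (log axis) with 95% counting intervals for every guidance gene with a mean of at least 20 in that comparison, knockdown over control on the left and overexpression over control on the right, with filled points called and dashed lines at 1.3-fold. The 6 genes called with knockdown lie above 1, while with overexpression SEMA3B, SEMA7A and PLXND1 lie below 1 and SEMA4D above.

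Raising TMEM126A in Ca1a was the second treatment compared. SEMA7A, PLXND1 and SEMA3B were called lower in the overexpression library, and SEMA4D was called higher. Of 32 guidance genes with the mean, 3 (9.38%) were called lower, against 3.24% of all 12111 genes with it, and 1 (3.12%) higher, against 3.11%. Intervals left out 1 on the lower side for 11 of the 32 (34.4%) and on the higher side for 5 (15.6%), against 16.2% and 18.1% of all genes. Among genes at or above the guidance genes' median abundance, those shares were 22.8% and 25.4%. The median log2 ratio was -0.07 for the guidance genes and 0.01 for all genes with that mean. The other 21 were under the mean, among them SEMA6B, with 2 reads in each library, and PLXNA4, with 0 in each.

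Semaphorins were 12 of the 32 genes with the mean and held 3 of the 4 calls. Of the 12, 2 (16.7%) were called lower and 1 (8.33%) higher, against 3.24% and 3.11% of all genes. So few genes give no firm contrast with those shares. SEMA7A (chr15:74409289-74433958) had 1650 and 1156 counts in the Ca1a control and overexpression libraries and was 1.43-fold lower (1.32 to 1.54). SEMA3B had 2661 and 1905 and was 1.40-fold lower (1.32 to 1.48). SEMA4D (chr9:89360787-89498130) had 102 and 136 and was 1.33-fold higher (1.02 to 1.74), with a lower bound close to 1. SEMA4B, the most abundant semaphorin of Ca1a, had 4079 and 3290 and was 1.24-fold lower (1.18 to 1.298), while SEMA4C, at 744 and 732, had a ratio of 0.984 (0.887 to 1.09). The class 3 ligands split: SEMA3F, at 817 and 692, was 1.18-fold lower (1.07 to 1.31), SEMA3C, at 1000 and 1276, was 1.28-fold higher (1.17 to 1.39), and SEMA3A, at 156 and 167, had a ratio of 1.07 (0.855 to 1.34). SEMA5A, a transmembrane semaphorin at 0.917 and 0.810 FPKM in the Ca1a pair, had a ratio of 0.875 (0.741 to 1.03). SEMA4A, with 28 and 42 counts, had the highest ratio of the 32, but its interval of 0.908 to 2.51 holds 1.

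Of the receptors, PLXND1 (chr3:129555175-129606818) had 193 and 138 counts and was 1.40-fold lower (1.12 to 1.75). PLXNB1, at 2185 and 2509, was 1.15-fold higher (1.08 to 1.22), so SEMA4D and its receptor gene were both higher beyond counting error. NRP1, at 1788 and 1553, was 1.15-fold lower (1.08 to 1.23), while NRP2, at 2582 and 2684, had a ratio of 1.04 (0.984 to 1.10). PLXNB3, at 918 and 830, was 1.11-fold lower (1.01 to 1.22), and PLXNA1 (7222 and 6988), PLXNA2 (2249 and 2215), PLXNA3 (1717 and 1779) and PLXNB2 (11032 and 10855) had intervals that hold 1. The 4 endothelial markers summed to 0.893 FPKM in control cells and to 1.39 with overexpression, almost all of it PECAM1 (0.865 and 1.36 FPKM), with TEK at 0.0275 and 0.0268, VWF at 0 reads and 1 read and CDH5 at 0 in both. Their part in these ratios was not tested.

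No Eph receptor or ephrin was called in Ca1a, of 5 and 6 genes with the mean. Of all genes 3.11% were called higher and 3.24% lower, so 0 calls among so few is near that share. EPHB3, at 241 and 191, was 1.26-fold lower (1.04 to 1.53), and EPHB2, at 702 and 582, was 1.21-fold lower (1.08 to 1.35), whereas EPHB4, at 3693 and 3832, had a ratio of 1.04 (0.992 to 1.09). The 3 ephrin-A genes of the chromosome 1 cluster had ratios below 1, as had 5760 of all 12111 genes with the mean. A set this small gives no contrast with that share. EFNA1, at 474 and 403, was 1.18-fold lower (1.03 to 1.35). EFNA3, at 107 and 80, and EFNA4, at 156 and 125, had ratios of 0.748 (0.552 to 1.01) and 0.801 (0.628 to 1.02), with intervals that hold 1. EFNA5, at 610 and 651, had a ratio of 1.07 (0.954 to 1.19). The B ligands parted, with EFNB1, at 2332 and 2040, 1.14-fold lower (1.08 to 1.21), and EFNB2, at 3839 and 4023, 1.05-fold higher (1.002 to 1.10). EPHA2, at 19783 and 20749, was 1.05-fold higher (1.03 to 1.07), and EPHA1, at 608 and 543, had a ratio of 0.893 (0.794 to 1.004). Coding genes on the opposite strand overlap EPHA1 (ZYX), EPHB4 (SLC12A9), SEMA4G (MRPL43), PLXNA3 (LAGE3) and PLXNC1 (CEP83), and without a known strand setting reads of such partners cannot be told apart.

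The 2 comparisons use different lines and share no library, so their ratios were set side by side. Of 28 guidance genes with the mean in both, 14 had ratios on opposite sides of 1, beside 47.8% of all 11349 such genes. Intervals left out 1 in both with opposite direction for SEMA3B, SEMA3F, PLXND1 and NRP1, 4 of 28 (14.3%, against 5.51% of all genes), each higher with knockdown and lower with overexpression. They left out 1 in the same direction for EPHA2, EFNB2, SEMA3C and PLXNB1, also 4 of 28 (14.3%, against 7.11%), each higher in both. Intervals narrow with more reads, and no share among genes of like abundance was taken for the 2 comparisons together. PLXNB1 with knockdown and EFNB2 with overexpression had lower bounds of only 1.005 and 1.002, so their place here rests on the scaling. With scaling by total reads these ratios were 1.15 and 1.045, against 1.18 and 1.048. By the 1.3-fold rule 1 gene, SEMA3B, was called in opposite directions, as were 0.22% of all genes, and 0 in the same direction, against 0.405%. Across the 28 genes Spearman's rho between the log2 ratios was -0.06 and Pearson's r -0.24, given as a description.

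**Figure D4:**
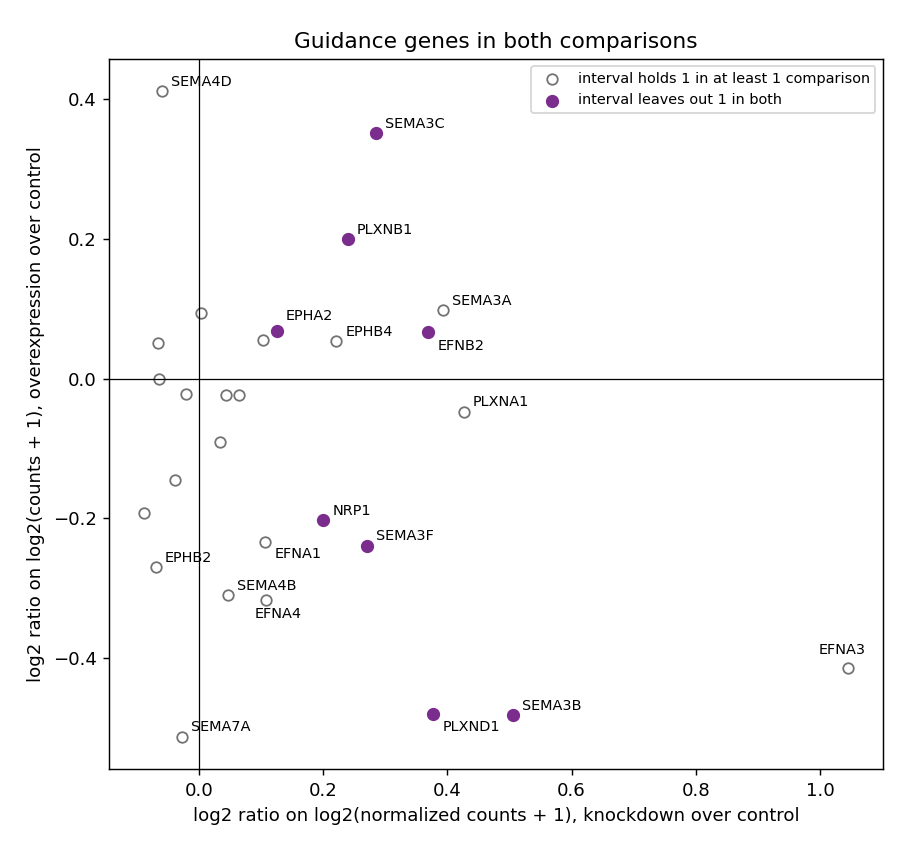
Log2 ratio of each of the 28 guidance genes with a mean of at least 20 in both comparisons, knockdown over control on the horizontal axis and overexpression over control on the vertical axis. The filled points SEMA3B, PLXND1, SEMA3F and NRP1, with intervals that leave out 1 in both, lie at the lower right, and SEMA3C, PLXNB1, EFNB2 and EPHA2 at the upper right.

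A list of 76 partner genes covered co-receptors, mediators of Eph and plexin signals, neuropilin ligands and the Slit, Robo, netrin and Unc5 families. With knockdown 2 of 53 with the mean were called higher (3.77%) and 1 lower (1.89%), against 3.24% and 1.69% of all genes, with a median log2 ratio of 0.03. These shares are near those of all genes, and the called genes are given as values only. PGF, a growth factor that binds NRP1, had 84.5 and 119 normalized counts and was 1.41-fold higher (1.06 to 1.89), and NTN5, a netrin, had 14.1 and 27.8 and was 1.98-fold higher (1.01 to 4.06), its mean resting on the knockdown library. NRCAM, an adhesion molecule of semaphorin receptor complexes, had 70.4 and 46.7 and was 1.51-fold lower (1.03 to 2.23). With overexpression 4 of 51 were called lower (7.84%) and 1 higher (1.96%), against 3.24% and 3.11% of all genes, with a median of -0.07. L1CAM, a partner of NRP1 in the SEMA3A receptor, had 133 and 67 counts and was 1.99-fold lower (1.47 to 2.70) in Ca1a, while in MDA-MB-231, at 1965 and 2517, it was 1.28-fold higher (1.21 to 1.36). MICAL1, an actin oxidase downstream of plexins, had 895 and 657 and was 1.36-fold lower (1.23 to 1.51), and with knockdown it was lower too, at 877 and 683, 1.29-fold lower (1.16 to 1.42). RND1, a GTPase that binds plexins, had 94 and 60 and was 1.57-fold lower (1.12 to 2.20). FYN, a kinase of Eph and plexin signalling, had 102 and 70 and was 1.46-fold lower (1.06 to 2.004). With knockdown FYN was lower too, at 1486 and 1312, 1.13-fold lower (1.05 to 1.22). GRIP1, a scaffold that binds ephrin-B tails, had 103 and 156 and was 1.51-fold higher (1.17 to 1.96). With knockdown the intervals of RND1 and GRIP1 hold 1.

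DESeq was run by the authors on the same single libraries. In the authors' deposited table the guidance genes with the lowest adjusted p-values in the knockdown comparison are SEMA6B, SEMA3B and PLXNA1. Their log2 fold changes there are 0.576, 0.507 and 0.427. For overexpression the guidance genes with the lowest are SEMA7A and SEMA3B, with log2 fold changes of -0.513 and -0.482. The p-values come from 1 library per condition and do not measure the spread between cultures, so they are not used as a cut here.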

How the data were processed

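Total RNA of 4 cultures was taken up in TRIzol and made into Illumina libraries, per the labels' protocols. The submitters' processing notes name HISAT2, Cufflinks, HTSeq, DESeq, GRCh38.p5 and hg38, with no versions or roles, and the strand setting is not stated in any source used here. Ca1a files hold whole read counts per gene as deposited by the authors. MDA-MB-231 files hold a signal deposited by the authors, DESeq base means per the file headers, which were taken as reads over a size factor because each is a whole multiple of the column's lowest nonzero value (tolerance 1e-06). FPKM of all libraries was deposited by the authors, with a denominator not stated. The log2 fold change and p-value of the authors' deposited tables were copied.

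Ratio intervals are exact conditional binomial (Clopper-Pearson) and level intervals exact Poisson, both at 95%. Level intervals scale the deposited FPKM by the limits of the read count and leave out error in the FPKM estimate and transcript length. Reads carry no molecular identifiers and are not independent molecules, so intervals cover counting error only. Medians use a pseudocount of 1. Shares of all genes come from the whole tables under the same rule. The guidance genes, the partner and marker lists, the thresholds and the alternatives were chosen with earlier results of these data known. By rule, guidance genes with a mean of 20 in a comparison or 1 FPKM in a library could be named, others as listed at 0 or under the mean, with values in all libraries for called genes and the 2 highest of each family in either control. Partner genes were named when called, up to 8 per comparison. L1CAM, MICAL1, FYN, RND1 and GRIP1 in the knockdown comparison, the motifs and the printed windows were chosen after values were seen. Positions were matched by Entrez ID. Calls and intervals were run on simulated counts with counting error alone, as a check of the code. Interval coverage was therefore set by the simulation, which held no spread between cultures. Its planted changes were larger than most called ratios here and lay only in genes with many reads. Alternatives were other scalings, units, filters, folds, floors and pseudocounts. Tools were python 3.11.15, numpy 2.4.6, pandas 2.3.3 and scipy 1.17.1, figures used matplotlib 3.10.9, and TMM scaling used edgeR 4.0.16 in R 4.3.3.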

Additional observations from a re-analysis of the deposited data

Results flagged for a closer look

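SEMA3B had a ratio of 1.42 (1.33 to 1.52) with TMEM126A knockdown in MDA-MB-231 and of 0.716 (0.675 to 0.760) with overexpression in Ca1a, so it was on opposite sides of 1 in the 2 lines. Each ratio rests on 1 library per condition, and the difference between the lines was not tested.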

How the results depend on the processing

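No paired analysis was possible because each group held 1 library, and for the same reason no library could be left out. Scaling by total reads or by TMM, ratios of FPKM, and filters at a mean of 5, at 100 or none gave 5 or 6 guidance genes called higher and 0 lower with knockdown, and 3 lower and 1 higher with overexpression. Over these and pseudocounts of 0.5 and 5, median log2 ratios ran from 0.09 to 0.13 and from -0.10 to -0.02. SEMA3A was under 1.3-fold with scaling by total reads (ratio 1.28), and EFNA3 was under the mean of 100. At 1.5-fold 2 guidance genes were called with knockdown, both higher, and 0 with overexpression, neither higher (0) nor lower (0). At 2-fold 1 was called with knockdown, higher, and 0 with overexpression. Without the counting interval 2 were called higher with overexpression. Between the controls 22 were called at 2-fold (10 higher in MDA-MB-231, 12 in Ca1a) and 7 at 8-fold (3 in Ca1a). A floor of 5 FPKM gave 5 (3 and 2), a pseudocount of 1 FPKM gave 6 (2 in Ca1a), and library-scaled reads in place of FPKM gave 21 (14 in MDA-MB-231). A higher fold, floor or pseudocount calls fewer genes by construction. Library-scaled reads leave out transcript length and were held to the same floor of 1, so other genes can reach it. The part of this in the count of 21 was not tested. Few reads leave wide intervals for EFNA3 and SEMA4D.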
